A study of Homo sapiens with 6 samples.

Results

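Of 23953 peaks in the deposited lists of chromatin immunoprecipitation with sequencing (ChIP-seq) for 82-kDa ChAT and SATB1, 1245 lay in gene deserts, and these are described here. A gene desert was any stretch over 250 kb from every protein-coding gene body of GENCODE on hg38. Chromosomes 3, 4, 5, 6, 8, 11, 12, 13 and 18 were used, without a window of 4 to 6 Mb around each centromere. On this territory the 4 libraries had 7777 peaks, so that the desert peaks were a subset chosen by position alone, with no use of score or sequence. The cells were SH-SY5Y, a human neuroblastoma line, stably expressing heterologous 82-kDa ChAT and differentiated with retinoic acid for 3 days. They then received vehicle (F12 medium) or 100 nM oligomeric Aβ1–42 for 4 h, with 3 plates of cells per treatment. One antibody to ChAT and one to SATB1 were used on each treatment, and each gave 1 library, so 381 desert peaks came from ChAT vehicle, 442 from ChAT Aβ, 167 from SATB1 vehicle and 255 from SATB1 Aβ. The 2 proteins of a treatment shared 1 input, all cells carried the transgene, and no library has a replicate, so no test between libraries was made. The depth of the libraries is not known from the peak lists, and numbers of peaks could not be set against it. Intervals below are exact 95% intervals (Clopper-Pearson for shares, Poisson for densities) and cover counting error only. For a share with a count of 0 the limit given is 3 counts of the total, with the upper end of the exact interval beside it.

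Gene deserts are long stretches of the genome without protein-coding genes. They are mostly rich in A and T, replicate late, often lie at the nuclear lamina, and many flank genes for adhesion molecules or developmental transcription factors, whose distant enhancers they can hold. SATB1 (special AT-rich binding protein) is a nuclear protein that binds A+T-rich DNA where strands separate easily and anchors it to the nuclear matrix. Choline acetyltransferase (ChAT) makes acetylcholine, and its 82-kDa form, which is found in primates, is directed to the nucleus. The amyloid peptide Aβ accumulates in Alzheimer disease, in which cholinergic neurons are lost.

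The sequences that show best what the desert peaks were made of are given first, all from hg38, plus strand, 5′ to 3′. The first set shows tandem repeats. The AGA–TENM3, SGO1–ZNF385D and IRX2–IRX1 peaks were of ChAT vehicle, with 2114, 1486 and 197 nt. The TRIML1–FRG1 and GALR1–SALL3 peaks were of SATB1 vehicle, with 232 and 152 nt. A stretch from the middle of each peak (for GALR1–SALL3 the whole peak and 1 base before it) is printed with 1 repeat unit in capitals.
AGA–TENM3, chr4:181240639-181240791: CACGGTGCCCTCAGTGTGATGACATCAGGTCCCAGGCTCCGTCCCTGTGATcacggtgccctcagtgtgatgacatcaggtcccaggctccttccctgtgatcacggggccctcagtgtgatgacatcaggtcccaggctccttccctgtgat
SGO1–ZNF385D, chr3:20855487-20855622: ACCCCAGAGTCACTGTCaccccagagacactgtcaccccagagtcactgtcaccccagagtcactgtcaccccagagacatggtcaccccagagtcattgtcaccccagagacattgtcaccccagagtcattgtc
TRIML1–FRG1, chr4:189036137-189036280: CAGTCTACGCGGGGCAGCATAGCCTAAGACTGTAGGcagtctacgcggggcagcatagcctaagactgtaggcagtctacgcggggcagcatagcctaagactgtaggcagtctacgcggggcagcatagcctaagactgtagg
IRX2–IRX1, chr5:3276230-3276373: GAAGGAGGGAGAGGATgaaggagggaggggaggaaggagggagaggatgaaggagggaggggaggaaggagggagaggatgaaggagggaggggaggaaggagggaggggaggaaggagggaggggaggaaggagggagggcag
GALR1–SALL3, chr18:77549226-77549378: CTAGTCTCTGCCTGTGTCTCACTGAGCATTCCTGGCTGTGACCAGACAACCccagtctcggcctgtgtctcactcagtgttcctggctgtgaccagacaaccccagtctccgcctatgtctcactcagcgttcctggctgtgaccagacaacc

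The AGA–TENM3 unit had 51 nt, with 1 and 2 mismatches between the first unit printed and the next ones. The whole peak was as long as 41.5 such units. In the SGO1–ZNF385D peak the unit had 17 nt and no CpG, and the whole peak was as long as 87.4 units. These figures are peak length divided by unit length. The tandem-repeat measure read only a window shorter than these peaks, so whether the units fill them was not tested. The 36-nt unit between TRIML1 and FRG1 recurred without a mismatch in the next 2 copies, and the 16-nt unit between IRX2 and IRX1 held only A and G on this strand apart from its last letter. In the GALR1–SALL3 peak 3 copies of a 51-nt unit differed at 5 positions each from the first.

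The second set shows regions that peaks of different libraries shared and that were not tandem repeats by the measure given further on. Capitals mark matches, read from left to right without overlap, to the A/T–C pattern, a motif known for SATB1, in which 3 to 6 letters A or T are followed by C and then by at least 3 letters A or T (on the other strand by the mirror pattern around G).
NEDD1–TMPO, chr12:97406298-97406439: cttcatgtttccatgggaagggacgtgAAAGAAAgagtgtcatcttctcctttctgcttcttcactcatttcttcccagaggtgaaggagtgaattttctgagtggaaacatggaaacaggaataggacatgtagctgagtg
NUDT12–EFNA5, chr5:106948614-106948763: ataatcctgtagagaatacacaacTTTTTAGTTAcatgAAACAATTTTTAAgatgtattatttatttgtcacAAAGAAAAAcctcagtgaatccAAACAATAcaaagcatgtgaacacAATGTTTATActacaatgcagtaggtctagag
KLHL1–DACH1, chr13:70394421-70394577: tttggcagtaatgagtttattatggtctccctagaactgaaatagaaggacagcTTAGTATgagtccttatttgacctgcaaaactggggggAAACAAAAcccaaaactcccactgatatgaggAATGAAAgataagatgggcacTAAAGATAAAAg
CHSY3–HINT1, chr5:130670263-130670400: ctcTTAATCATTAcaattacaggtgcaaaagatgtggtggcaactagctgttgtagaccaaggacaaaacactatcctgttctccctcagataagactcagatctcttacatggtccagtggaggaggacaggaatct
PCDH7–ARAP2, chr4:31960433-31960561: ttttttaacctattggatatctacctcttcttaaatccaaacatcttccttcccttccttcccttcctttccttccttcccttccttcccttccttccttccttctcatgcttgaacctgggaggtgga

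The NUDT12–EFNA5 region was 70.7% A+T and held 5 such matches. The PCDH7–ARAP2 region held 0 matches at 55.8% A+T, was in its middle a run of C and T with a short recurring unit, and was Alu-matching, as defined below. Capitals mark the same pattern in the next set, which holds short peaks among the highest scores of their libraries.
CDH2–DSC3, chr18:29196006-29196061: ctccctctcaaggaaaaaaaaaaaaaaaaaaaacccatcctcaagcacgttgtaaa
GALR1–SALL3, chr18:77570611-77570665: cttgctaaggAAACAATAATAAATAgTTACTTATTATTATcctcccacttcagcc
RAPGEF2–FSTL5, chr4:160162076-160162127: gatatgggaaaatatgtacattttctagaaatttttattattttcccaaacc
RPS23–TMEM167A, chr5:82762328-82762387: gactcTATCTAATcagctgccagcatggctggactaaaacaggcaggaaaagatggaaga

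The CDH2–DSC3 peak (SATB1 vehicle, score 160.76) had 56 nt around a run of A, and the GALR1–SALL3 and RAPGEF2–FSTL5 peaks (ChAT Aβ, scores 130.28 and 118.57, the latter reached by 9 peaks) had 55 and 52 nt. The RPS23–TMEM167A peak (SATB1 Aβ, score 119.36) had 60 nt and was 53.3% A+T.

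Deserts held peaks about as densely as the rest of the chromosomes for 82-kDa ChAT after Aβ and for SATB1 after vehicle, and less densely for SATB1 after Aβ. Deserts made up 18.8% of the determined bases of the territory (241.8 of 1284.6 Mb). They held 16.3% of the ChAT vehicle peaks (381 of 2343, interval 14.8 to 17.8), 18.03% of the ChAT Aβ peaks (442 of 2452, 16.5 to 19.6), 17.8% of the SATB1 vehicle peaks (167 of 940, 15.4 to 20.4) and 12.5% of the SATB1 Aβ peaks (255 of 2042, 11.1 to 14.0). The intervals of ChAT Aβ and SATB1 vehicle covered the share of bases, and those of ChAT vehicle and SATB1 Aβ lay below it. Per Mb, ChAT vehicle had 1.58 peaks in deserts and 1.88 elsewhere, ChAT Aβ 1.83 and 1.93, SATB1 vehicle 0.691 and 0.741, and SATB1 Aβ 1.05 and 1.71. SATB1 Aβ peaks were thus 1.63 times as dense outside deserts as inside.

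Alu elements are short interspersed repeats, rich in G+C and CpG, that are dense among genes and sparse in deserts. A peak was called Alu-matching when its central 130 nt matched a 287-nt Alu copy. Without Alu-matching peaks, deserts held 18.4% of the SATB1 Aβ peaks (76 of 413, 14.8 to 22.5), and the densities inside and outside were 0.314 and 0.323 per Mb. The other 3 libraries moved to 17.1%, 19.3% and 18.2% (ChAT vehicle, ChAT Aβ, SATB1 vehicle). Only the interval of ChAT vehicle, 15.55 to 18.76, then ended below the share of bases, 18.82%.

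**Figure D1:**
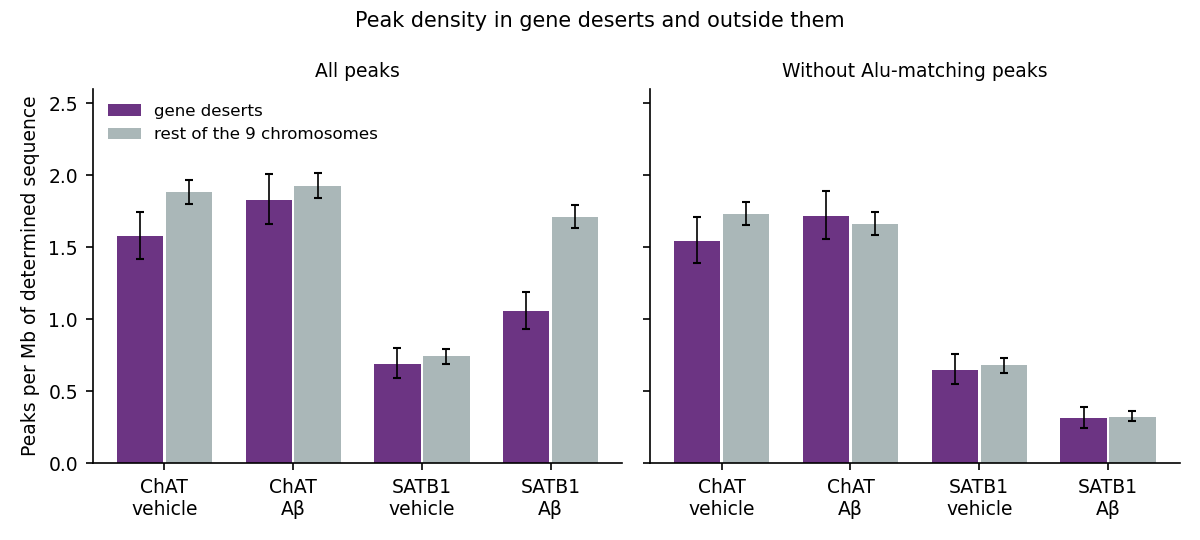
Peaks per Mb of determined sequence (vertical axis) in gene deserts and in the rest of the 9 chromosomes for each library, over all peaks (left) and without Alu-matching peaks (right), with exact Poisson 95% intervals as bars. SATB1 Aβ had 1.05 per Mb in deserts and 1.71 elsewhere, and 0.314 and 0.323 without Alu-matching peaks.

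Distances from genes within the deserts were read for each library. The median distance from a desert peak to its nearest protein-coding gene was 478 kb for ChAT vehicle, 539 kb for ChAT Aβ, 442 kb for SATB1 vehicle and 480 kb for SATB1 Aβ, against 534 kb for the desert sequence itself, read over 130-nt tiles laid end to end. Of the ChAT Aβ desert peaks 81 (18.3%) lay over 1 Mb from a gene, of ChAT vehicle 50 (13.1%), of SATB1 vehicle 19 (11.4%) and of SATB1 Aβ 34 (13.3%), with 17.4% of tiles. Sequence over 500 kb from a gene was 10.1% of the bases. It held 9.75% of the ChAT Aβ peaks (8.60 to 10.99), but 7.47% of the ChAT vehicle peaks (6.44 to 8.61), 7.55% of the SATB1 vehicle peaks (5.95 to 9.43) and 5.83% of the SATB1 Aβ peaks (4.85 to 6.93). Without Alu-matching peaks these shares were 7.80% for ChAT vehicle, 10.5% for ChAT Aβ, 7.63% for SATB1 vehicle and 8.23% for SATB1 Aβ. With all peaks, the ChAT Aβ interval over 500 kb, 8.60 to 10.99, overlapped those of ChAT vehicle and SATB1 vehicle. The shares over 1 Mb and those without Alu-matching peaks are given without intervals. The peaks farthest out lay 2357, 2230, 1851 and 2332 kb from a gene in the order given. At the edge of the definition, 59, 50, 29 and 40 desert peaks of the 4 libraries lay 250 to 300 kb from a gene, and 67, 69, 41 and 51 peaks lay just outside, at 200 to 250 kb.

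Over all peaks, density moved with the A+T content of the surroundings mainly for ChAT vehicle and SATB1 Aβ. When 10-kb bins of the deserts were sorted by A+T content into 4 classes of equal number, ChAT vehicle peaks stood at 2.24 per Mb (1.88 to 2.65) in the class lowest in A+T, 36.3% to 61.9%, and at 1.32, 1.17 and 1.54 per Mb in the next ones. ChAT Aβ peaks stood at 2.09, 1.72, 1.89 and 1.62 per Mb, and SATB1 vehicle peaks at 0.681, 0.583, 0.834 and 0.635. SATB1 Aβ peaks stood at 1.20, 1.15 and 1.18 per Mb in the first 3 classes and at 0.652 (0.464 to 0.891) in the class richest in A+T, 65.8% to 73.6%. Without Alu-matching peaks, those of SATB1 Aβ stood at 0.382, 0.300, 0.367 and 0.184 per Mb. The interval of the first class, 0.242 to 0.573, then overlapped that of the richest class, 0.0918 to 0.329. For SATB1 vehicle the intervals of the 4 classes overlapped with all peaks. These values describe the 10-kb surroundings and not the sequence of the peaks. Tandem-repeat peaks, described below, were not left out of these classes. For ChAT vehicle they were 37 of the 381 desert peaks, with a mean A+T content of 46.7%. Of its desert peaks 25 lay in 11 groups within 1 kb and are not independent, so its intervals are too narrow.

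Peaks were spread over most deserts. Of 340 deserts, 245 held a peak and 52 held peaks of all 4 libraries. Each of the 86 deserts of at least 1 Mb held a peak. The 12 deserts with the most peaks held 236 of the 1245. Over all deserts the 4 libraries together gave 5.15 peaks per Mb.

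The desert between AGA and TENM3, a teneurin gene for a synaptic adhesion protein, held the most, 31 peaks in 4.202 Mb (chr4:177692438-181893986): 14 of ChAT vehicle, 8 of ChAT Aβ, 2 of SATB1 vehicle and 7 of SATB1 Aβ. On one side of PCDH7, a protocadherin gene, the STIM2–PCDH7 desert (chr4:27275382-30470368) held 29 peaks in 3.195 Mb, namely 7, 10, 7 and 5 in the same order. The desert on the other side, PCDH7–ARAP2, was the longest of all at 4.28 Mb and held 17 peaks (6, 5, 2 and 4), fewer per Mb (3.97 against 9.08). Over all deserts the libraries had 381, 442, 167 and 255 peaks in the same order, and counts in single deserts were small. SLITRK5–GPC5, next to the gene of a neuronal transmembrane protein, held 19 peaks (4, 5, 1 and 9), and CELF4–PIK3C3, next to a neuronal RNA-binding protein gene, held 16 (1, 10, 1 and 4). Between NUDT12 and EFNA5, which encodes an ephrin ligand of axon guidance, there were 18 peaks (2, 7, 5 and 4), and between GBE1 and CADM2, a synaptic adhesion gene, 17 (6, 5, 3 and 3). OLFM4–PRR20A held 19 peaks (6, 9, 2 and 2), C4orf33–PCDH10 held 16 (7, 6, 0 and 3) and EDIL3–COX7C held 15 (7, 4, 1 and 3).

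**Figure D2:**
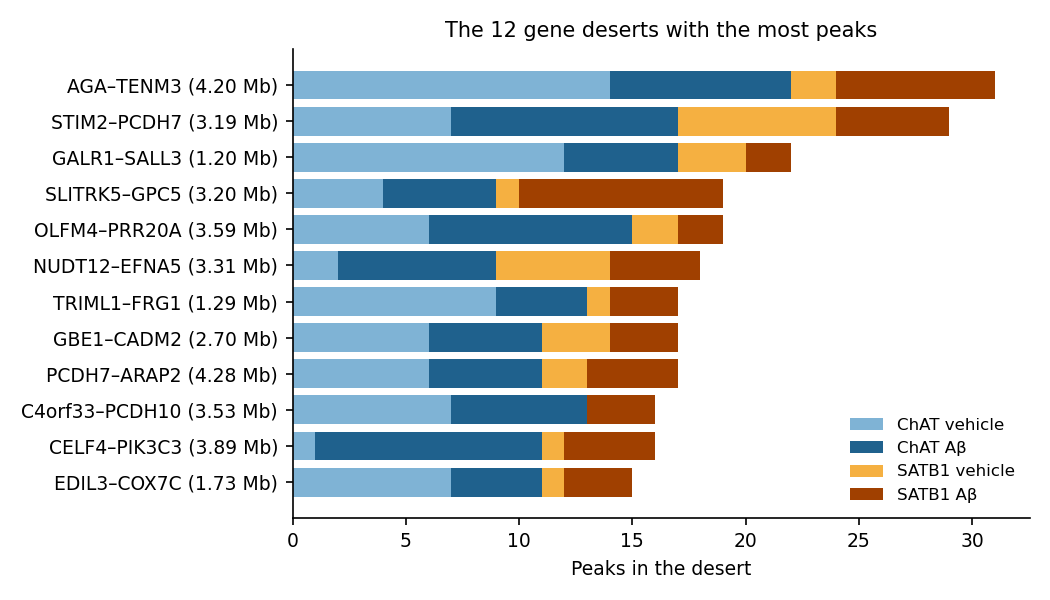
Number of peaks (horizontal axis) of each library, stacked, in the 12 gene deserts with the most peaks, with the flanking protein-coding genes and the length of each desert. AGA–TENM3 held 31 peaks, 14 of them of ChAT vehicle, and 10 of the 16 peaks of CELF4–PIK3C3 were of ChAT Aβ.

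By density the order was another one. Among the 144 deserts of at least 500 kb, GALR1–SALL3 (chr18:77527901-78729817) came first with 18.3 peaks per Mb, 12 of its 22 peaks from ChAT vehicle, 5 from ChAT Aβ, 3 from SATB1 vehicle and 2 from SATB1 Aβ. GALR1 encodes a galanin receptor and SALL3 a zinc finger transcription factor. CADM1–BUD13, next to a synaptic adhesion gene, had 14.8 per Mb, CSMD1–MCPH1 13.2, TRIML1–FRG1 13.1, CD109–COL12A1 11.9 and NAALADL2–TBL1XR1 11.3. ISL1–PELO followed with 11.2 per Mb, and its 10 peaks were 0 of ChAT vehicle, 3 of ChAT Aβ, 2 of SATB1 vehicle and 5 of SATB1 Aβ. ISL1 encodes a LIM homeodomain factor of cholinergic and motor neurons. The remaining ones of the first 12 were CBLB–CCDC54, LUZP2–ANO3, NOX3–ARID1B, CD180–PIK3R1 and LMO3–RERGL, at 9.92 to 9.28 per Mb. Over the 86 deserts of at least 1 Mb the density of all peaks ran from 0.994 to 18.3 with a median of 4.54. The desert next to SATB1 itself, SATB1–KCNH8, was 0.203 Mb long and held 3 peaks, 1 each of ChAT vehicle, ChAT Aβ and SATB1 Aβ.

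Deserts by the genes that flank them were then read by list. Cadherins and protocadherins, calcium-dependent adhesion molecules, flanked 22 deserts of 32.8 Mb with 4.76 peaks per Mb (156 peaks), and 1 of these deserts held no peak. Deserts next to genes of synaptic and immunoglobulin-type adhesion (27 deserts, 39.4 Mb) had 4.95 per Mb. Next to axon guidance genes (17 deserts, 19.3 Mb) the density was 5.58, and next to ion channel and neurotransmitter receptor genes (18 deserts, 11.6 Mb) 4.84 per Mb. Deserts next to developmental transcription factors (36 deserts, 18.6 Mb) had 6.47 per Mb, an interval of 5.36 to 7.73, against 5.15 over all deserts and 5.12 over the 225 deserts with no listed gene. Without tandem-repeat peaks, described below, this value was 5.604 (4.58 to 6.79) and that over all deserts 4.94. The lists thus lay within 4.76 to 6.47 per Mb, and the interval of only the transcription factor list lay clear of 5.12 with all peaks. In that list 1 desert, GALR1–SALL3, gave 22 of the 120 peaks in 1.20 Mb, and the density without it was not computed. These intervals count pooled peaks and do not measure the spread between deserts.

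ChAT vehicle peaks stood at 2.37 per Mb (1.72 to 3.18) beside transcription factor genes and at 1.40 to 1.65 per Mb beside the genes of the other lists. Of the 44 peaks behind the first value, 12 lay in GALR1–SALL3. Without tandem-repeat peaks the first value was 1.83 per Mb (34 peaks, 1.27 to 2.56), with 1.38 to 1.57 in the other lists. SATB1 vehicle peaks stood at 0.558 per Mb (0.350 to 0.845) in the adhesion list and 0.982 (0.591 to 1.53) in the axon guidance list, and SATB1 Aβ peaks at 0.9504 to 1.24. All these intervals overlapped within a library. Among the cadherin deserts, CDH9–CDH6 held 15 peaks (5, 3, 2 and 5 in the order ChAT vehicle, ChAT Aβ, SATB1 vehicle, SATB1 Aβ), CDH2–DSC3, next to N-cadherin, 13 (2, 6, 3 and 2) and PABPC4L–PCDH18 9 (1, 5, 0 and 3). Beside axon guidance genes, MAP3K7–EPHA7 held 14 (6, 5, 2 and 1), EPHA7–MANEA 9, LCORL–SLIT2 9 (1, 3, 1 and 4), NSUN3–EPHA6 8 and SEMA6A–DTWD2 8 (5, 2, 1 and 0). Of the channel and receptor deserts, KCNV1–CSMD3 held 12, GRIK2–HACE1, next to a kainate receptor gene, 11 (2, 3, 3 and 3), and HTR2A–SUCLA2, next to a serotonin receptor gene, 4. In the adhesion list IGFBP7–ADGRL3 held 14 (2, 3, 3 and 6). The transcription factor list held the IRX genes, homeobox factors of patterning. IRX2–IRX1 held 11 peaks in 0.344 Mb (4, 3, 3 and 1), IRX4–IRX2 6 in 0.359 Mb (4, 0, 2 and 0) and IRX1–ADAMTS16 8 in 1.04 Mb (2, 3, 0 and 3). SLC35B3–TFAP2A and ARRDC3–NR2F1 held 9 each, and in the latter all 9 were ChAT peaks, 6 of vehicle and 3 of Aβ. Over all deserts, ChAT vehicle and ChAT Aβ gave 381 and 442 of the 1245 peaks.

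**Figure D3:**
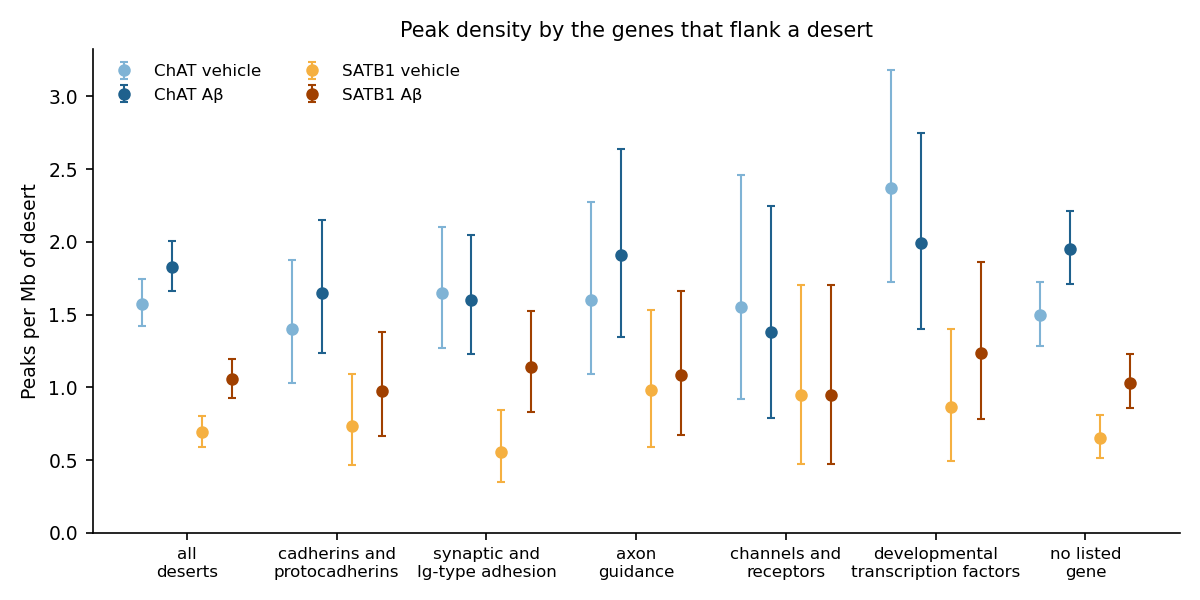
Peaks per Mb of desert (vertical axis) for each library, over all deserts, over the deserts flanked by a gene of each list and over those flanked by none, with exact Poisson 95% intervals. ChAT vehicle had 2.37 per Mb beside developmental transcription factor genes and 1.58 over all deserts.

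Repeats of 2 kinds were counted, Alu copies and tandem repeats. Alu copies were more frequent in SATB1 Aβ desert peaks than in the desert sequence. Of the SATB1 Aβ desert peaks 179 of 255, or 70.2% (64.2 to 75.7), were Alu-matching, against 2.10% for ChAT vehicle, 6.11% for ChAT Aβ, 5.99% for SATB1 vehicle and 4.78% of the desert tiles. Outside deserts the SATB1 Aβ share was 81.1%, with 7.90% for ChAT vehicle, 13.6% for ChAT Aβ and 8.41% for SATB1 vehicle. Copies of 51-mers tell how often a stretch recurs in the genome, and peaks in which over 50% of them recurred were called multi-copy. These were 54.9% of the SATB1 Aβ desert peaks, 7.61% of ChAT vehicle, 5.20% of ChAT Aβ and 10.8% of SATB1 vehicle, with 4.06% of tiles. Outside deserts the multi-copy shares were higher in each library, at 59.3%, 13.2%, 8.01% and 16.8% in the same order.

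The Alu-matching SATB1 Aβ desert peaks differed from the Alu-matching desert tiles in CpG content and in their place on the copy. They held 4.42 CpG per 100 nt, and Alu-matching tiles of the deserts held 2.16. Their centres lay at a median of 142 nt on the Alu copy, with quartiles at 106 and 178, and the centres of the tiles at 144 with quartiles at 67 and 218. In the middle seventh of the copy, from 124 to 164 nt, lay 30.7% of these peaks and 13.1% of the tiles, and in the first and the last seventh 2.23% and 1.12% of the peaks and 17.8% and 16.02% of the tiles. SATB1 Aβ peaks outside deserts had 28.0% in the middle seventh. The tiles are a limited background here, because they were laid without regard to where an Alu begins or ends. Matches aligned over a median of 105 nt in tiles and 125 nt in the desert peaks. Centres that fell beyond the copy were set to its nearest end, which adds to the first and last sevenths. The copy itself was taken from around a SATB1 Aβ peak. Median identity to the copy was alike, 82.2% in the desert peaks and 82.4% in the tiles. Close matches were not: 1 of the 179 desert peaks (0.559%) reached 90% identity, and 454 of 8899 tiles (5.10%). Of the Alu-matching SATB1 Aβ peaks outside deserts 63 of 1450 (4.34%) did. The 76 SATB1 Aβ desert peaks that were not Alu-matching had 0.668 CpG per 100 nt and 60.6% A+T. The reads were mapped with repeat masking, and its part in where Alu peaks were found was not tested.

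**Figure D4:**
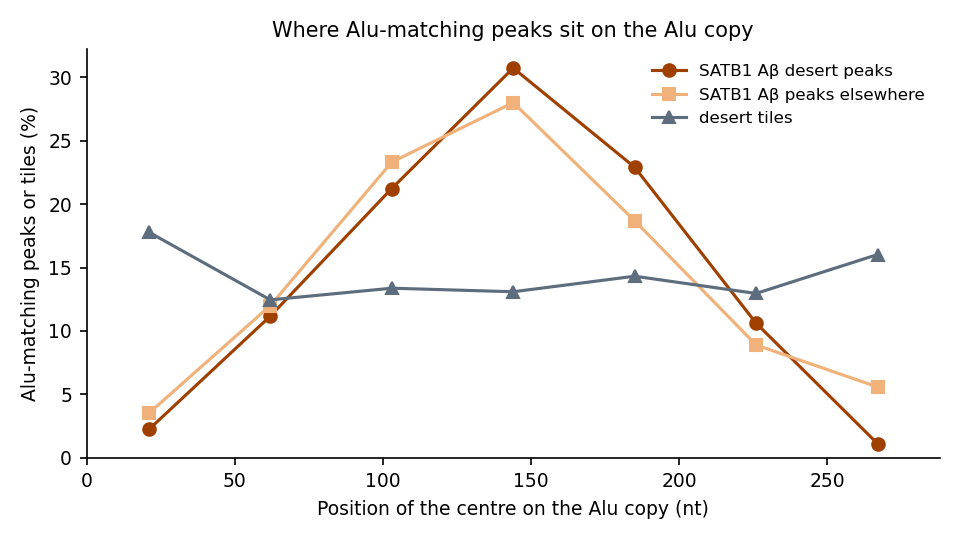
Share of Alu-matching peaks or desert tiles (vertical axis, %) by the position of their centre on the 287-nt Alu copy (horizontal axis, nt), in 7 bins. Centres that fell beyond the copy were set to its nearest end. SATB1 Aβ peaks, in deserts and elsewhere, were most frequent in the middle bin (30.7% and 28.0%), and tiles lay between 12.5% and 17.8% in every bin.

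In base composition the desert peaks of the other libraries were close to each other. Over the central 130 nt the mean A+T content was 61.8% ± 0.521 (SEM over 381 peaks) for ChAT vehicle, 61.5% ± 0.413 (442) for ChAT Aβ, 61.9% ± 0.670 (167) for SATB1 vehicle and 49.7% ± 0.613 (255) for SATB1 Aβ. The desert tiles had 63.6%, so that each library lay below the mean of the desert sequence. Peaks were not set against their own flanks. Without tandem-repeat peaks, described next, ChAT vehicle had 63.47% (62.54 to 64.41, a 95% normal interval from the SEM) and SATB1 vehicle 62.63% (61.39 to 63.87), and both intervals then covered the value of the tiles. Peaks of the same libraries outside deserts had 57.8%, 57.96%, 58.1% and 48.9%. The A/T–C pattern was present in 75.6% (71.0 to 79.8), 82.1% (78.2 to 85.6), 84.4% (78.0 to 89.6) and 70.6% (64.6 to 76.1) of the desert peaks and in 87.4% of the desert tiles of the same length. Only the interval of SATB1 vehicle reached the share in tiles. Outside deserts the pattern was present in 65.2%, 71.0%, 69.0% and 71.0% of the peaks of the 4 libraries. TCCAT or TCCCAT, searched on both strands, was present in 29.4%, 34.2%, 32.9% and 17.3% of the peaks and 34.0% of tiles. Runs of at least 10 A or T were in 4.199%, 5.20%, 8.38% (4.66 to 13.7) and 5.49% of the peaks and 3.07% of tiles. Such runs were more frequent outside deserts, in 6.78%, 7.31%, 13.7% and 10.1% of the peaks. Runs of at least 8 equal dinucleotides were in 3.67%, 4.75% (2.96 to 7.17), 2.40% and 1.57% and in 0.724% of tiles, with 3.82%, 3.38%, 2.72% and 1.06% outside deserts. Peaks rich in the pentamer CATTC of satellite DNA, with at least 3 per 100 nt, were 2 of 381, 2 of 442, 0 of 167 (up to 1.80% allowed by a count of 0, exact 2.18%) and 0 of 255 (up to 1.18%, exact 1.44%). The first 2 counts were 0.525% (0.0636 to 1.88) and 0.452% (0.0548 to 1.62), with 0.0650% of tiles. Outside deserts the pentamer-rich shares of the 4 libraries were 1.12%, 0.299%, 0.517% and 0.112%.

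Tandem repeats were found as 300-nt windows around a peak in which at least 75% of bases recurred at 1 shift between 10 and 100 nt. This measure was chosen after the longest peaks had been seen. Of the ChAT vehicle desert peaks 37 of 381, or 9.71% (6.93 to 13.1), were tandem repeats. There were 5 of 442 for ChAT Aβ (1.13%, 0.368 to 2.62), 7 of 167 for SATB1 vehicle (4.19%, 1.70 to 8.45) and 2 of 255 for SATB1 Aβ (0.784%). Of 18599 desert tiles 17 were, or 0.0914%. Outside deserts the shares were 12.9% for ChAT vehicle, 2.74% for ChAT Aβ, 6.86% for SATB1 vehicle and 1.68% for SATB1 Aβ. In each library the share in deserts was thus above that of the tiles, and it was highest for ChAT vehicle.

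These repeats made up most of the long ChAT vehicle peaks. Of its 23 desert peaks of at least 250 nt, 18 were tandem repeats, and the median length of its tandem-repeat peaks was 247 nt against 128 nt for the others. Long peaks were few in the other libraries, where 1 of 2 was a tandem repeat for ChAT Aβ, 1 of 3 for SATB1 vehicle and 0 of 3 for SATB1 Aβ. Median lengths of all desert peaks were 131, 110, 125 and 135 nt for ChAT vehicle, ChAT Aβ, SATB1 vehicle and SATB1 Aβ. The 2 highest scores of all desert peaks were tandem repeats of ChAT vehicle. A score is the p-value that MACS gave a peak, as its negative log10 multiplied by 10. The first was the 51-nt repeat between AGA and TENM3 shown above (chr4:181239659-181241772, 2114 nt, score 383.17), which no peak of another library overlapped. The second was the 17-nt repeat between SGO1 and ZNF385D, inside the lncRNA SGO1-AS1 (chr3:20854813-20856298, 1486 nt, score 356.99). Next to the first lay another ChAT vehicle peak on the same repeat (chr4:181239174-181239622, score 117.18). Such neighbours within 1 kb were found only for ChAT vehicle, 25 peaks in 11 groups, and not for the other 3 libraries in deserts. A score of 149.03 followed in 5 ChAT vehicle peaks, among them a 21-nt repeat between TRIML1 and FRG1 (chr4:189465314-189465780). Scores recurred often, 53.93 in 44 ChAT vehicle peaks and 66.26 in 39 ChAT Aβ peaks. Their medians were 65.4, 63.5, 67.7 and 66.8 in the order given.

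**Figure D5:**
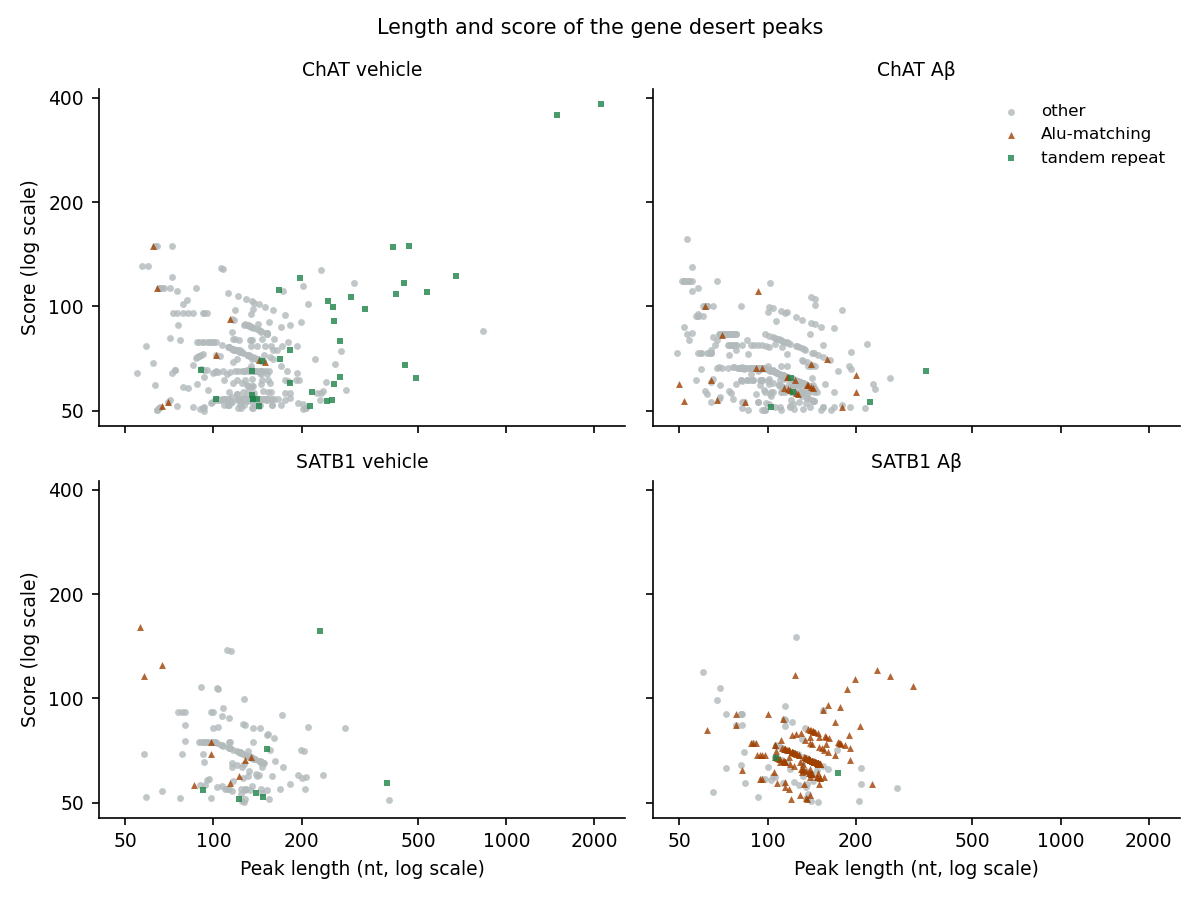
Score (vertical axis, log scale) against peak length (horizontal axis, nt, log scale) of every gene desert peak, 1 panel per library, with tandem-repeat and Alu-matching peaks marked. The 2 ChAT vehicle peaks over 1000 nt are tandem repeats with scores of 383.17 and 356.99, and most SATB1 Aβ peaks are Alu-matching.

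Tandem-repeat peaks lay in few deserts and near chromosome ends. Of the 51 in the 4 libraries, 37 (72.5%, 58.3 to 84.1) lay within 5 Mb of an end, against 5.28% of the 1194 other desert peaks and 3.52% of desert tiles. Of the 17 tandem-repeat tiles 7 did so (41.2%, 18.4 to 67.1). For ChAT vehicle alone the count was 25 of 37, and 26 of its 344 other desert peaks (7.56%, 5.00 to 10.9). Some tandem-repeat peaks lay side by side on 1 repeat, and some repeats were counted in 2 libraries, as at TRIML1–FRG1 (chr4:189036094-189036325). Such peaks are not independent, so the intervals over tandem-repeat peaks are too narrow. The desert from B3GAT1, a gene of HNK-1 carbohydrate synthesis on neural adhesion proteins, to the end of chromosome 11 held 12 peaks in 0.414 Mb, of which 8 were tandem repeats, 7 of them of ChAT vehicle. In TRIML1–FRG1 these were 8 of 17 peaks, in GALR1–SALL3 7 of 22, in IRX2–IRX1 4 of 11 and in IRX4–IRX2 3 of 6. Without them the density of GALR1–SALL3 went from 18.3 to 12.5 per Mb, that of TRIML1–FRG1 from 13.1 to 6.96, that of B3GAT1 to the end from 29.0 to 9.65 and that of IRX2–IRX1 from 31.96 to 20.3. For AGA–TENM3 it hardly moved, from 7.38 to 6.90 per Mb.

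Peaks of different libraries rarely met in deserts. The 1245 peaks formed 1195 separate regions, of which 49, in 44 deserts, were shared by 2 libraries and 0 by 3 or more. ChAT vehicle and SATB1 vehicle shared 29, ChAT vehicle and ChAT Aβ 11, ChAT Aβ and SATB1 Aβ 8, and ChAT vehicle and SATB1 Aβ 1. Most sharing was thus between the proteins within a treatment, whose libraries also shared an input, and the part of that input in the sharing was not tested.

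For each pair the share of desert peaks that overlapped (at least 1 nt) is given with the share of the same library's peaks outside deserts. Of the SATB1 vehicle desert peaks 29 of 167, or 17.4% (11.9 to 24.0), overlapped a ChAT vehicle peak, with 22.3% outside deserts. In the other direction it was 30 of 381 ChAT vehicle desert peaks, 7.87% (5.38 to 11.1), with 8.82% outside. After Aβ, 8 of 255 SATB1 desert peaks, 3.14% (1.36 to 6.09), overlapped a ChAT peak, with 3.02% outside, and 8 of 442 ChAT peaks overlapped a SATB1 peak, 1.81% with 2.74% outside. Between the treatments, 11 of 381 ChAT vehicle desert peaks (2.89%, 1.45 to 5.11) overlapped a ChAT Aβ peak, with 3.11% outside, and 11 of 442 the other way (2.49%), with 2.99% outside. Each of these intervals held the share outside deserts.

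SATB1 vehicle and SATB1 Aβ shared 0 desert peaks, where a count of 0 allows up to 1.80% of the 167 and 1.18% of the 255 (exact 2.18% and 1.44%), and outside deserts 0.776% and 0.336% of their peaks overlapped. ChAT Aβ and SATB1 vehicle shared 0 as well. That allows up to 0.679% of the 442 and 1.80% of the 167 (exact 0.831% and 2.18%), with 1.04% and 2.85% outside deserts. The single pair of ChAT vehicle and SATB1 Aβ was 0.262% of the 381 and 0.392% of the 255, with 1.17% and 1.23% outside. It lay at chr6:85976081-85976224, in the desert between ENSG00000271793 and HTR1E and 297 kb from the former, its nearest gene. Counting peaks within 200 nt instead gave 30, 11, 9 and 0 for SATB1 vehicle in ChAT vehicle, ChAT vehicle in ChAT Aβ, SATB1 Aβ in ChAT Aβ and SATB1 vehicle in SATB1 Aβ.

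Among the shared regions with the highest scores, NEDD1–TMPO (chr12:97406298-97406439) had 73.61 in ChAT Aβ and 150.04 in SATB1 Aβ, the top score of that library in deserts. TMPO encodes lamina-associated polypeptide 2 of the nuclear envelope, and the region lay 453 kb from NEDD1, its nearest gene. PCDH7–ARAP2 (chr4:31960433-31960561) had 149.03 in ChAT vehicle and 69.61 in SATB1 vehicle. NUDT12–EFNA5 (chr5:106948614-106948763), inside LINC01950, had almost equal scores, 99.77 and 99.73, in the same 2 libraries. The KLHL1–DACH1 region (chr13:70394421-70394577), between genes of an actin-binding protein and a transcription factor, had 86.80 and 91.17. The tandem repeat of TRIML1–FRG1 (chr4:189036094-189036325) had 56.65 in ChAT vehicle and 156.91 in SATB1 vehicle.

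Regions that 82-kDa ChAT held in both treatments included IRX2–IRX1 (chr5:3276094-3276440, the GA-rich repeat shown above, scores 120.98 for vehicle and 64.91 for Aβ) and CHSY3–HINT1 (chr5:130670263-130670400, 65.08 and 93.69). They also included PTS–NCAM1 (chr11:112653371-112653513, 95.58 and 53.47), on the side of the neural cell adhesion molecule gene. ChAT Aβ and SATB1 Aβ met in EDIL3–COX7C (chr5:86109304-86109443, 58.86 and 90.44) and CDH2–DSC3 (chr18:30545548-30545684, 51.02 and 56.56). The IRX2–IRX1 desert held 3 of the 49 regions, and the deserts GALR1–SALL3, MAP3K7–EPHA7 and RIOK2–RGMB 2 each. Of the 49 regions 3 were Alu-matching and 7 mostly multi-copy. On chromosome 8, CSMD1–MCPH1 (128.54 and 136.73) and DUSP26–UNC5D (107.07 and 138.24) had high scores in ChAT vehicle and SATB1 vehicle, and the highest ChAT Aβ score in deserts, 156.13, was in MYC–GSDMC inside the lncRNA CCDC26, with no overlapping peak of another library.

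Deserts lack protein-coding genes but not transcripts, and long noncoding RNA genes covered 32.5% of the tiles. Desert peaks lay in such genes at 34.6% (29.9 to 39.7) for ChAT vehicle, 34.8% (30.4 to 39.5) for ChAT Aβ, 31.1% (24.2 to 38.8) for SATB1 vehicle and 34.5% (28.7 to 40.7) for SATB1 Aβ, each interval covering the share of tiles. Their exons held 6, 4, 1 and 3 peaks, 1.57%, 0.905%, 0.599% and 1.18%, with 1.16% of tiles. Pseudogenes held 10, 9, 4 and 4 peaks, 2.62%, 2.04%, 2.40% and 1.57%, with 1.16% of tiles. Only the interval of ChAT vehicle, 1.27 to 4.77, lay above the share of tiles. Among named lncRNA genes, LINC02882 and MIR4300HG each held 6 desert peaks, and LINC00882, LINC02997 and LINC03000 each 5. Small RNA genes held 0 peaks in the 4 libraries, with 0.0194% of tiles.

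By chromosome the density of desert peaks was 4.49 per Mb on chromosome 13 and 6.45 on chromosome 18, the lowest and the highest of the 9. Deserts were 29.6% of the bases of chromosome 13 and held 39 of its 195 ChAT vehicle peaks, 31.1% of ChAT Aβ, 23.1% of SATB1 vehicle and 19.7% of SATB1 Aβ. On chromosome 12 they were 10.4% of the bases and held 6.98%, 10.9%, 7.59% and 5.04%. Over all its peaks, Alu-matching ones included, the share for SATB1 Aβ was below the share of bases on each of the 9 chromosomes.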

How the data were processed

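Chromatin immunoprecipitation was followed by sequencing for 82-kDa ChAT and SATB1 after vehicle or Aβ, with 1 library each. The authors mapped reads with BWA to hg38 with repeat masking, took peaks that MACS gave at a p-value under 1e-05, and removed those also found in the input. The deposited lists used here held 8270 (ChAT vehicle), 6563 (ChAT Aβ), 3065 (SATB1 vehicle) and 6055 (SATB1 Aβ) peaks. Each is more than the paper reports for that library, and whether input peaks had been removed from these lists is not known. The score deposited for a peak is the negative log10 of its p-value, multiplied by 10. Reads and inputs were not analysed here, and versions of BWA and MACS are not given in the sources used here.

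Deserts were built from GENCODE 44 protein-coding genes. A desert peak lay wholly inside a desert. The background was the desert sequence itself, cut into 1859892 consecutive tiles of 130 nt, with every 10th used for Alu matches and annotation and every 100th for 51-mers and tandem repeats. Alu matches came from blastn 2.17.0 at an e-value of 1e-05 against 1 Alu copy taken from a SATB1 Aβ peak on another chromosome. Computation was done in Python 3.11.15 (scipy 1.17.1, numpy 2.4.6, pysam 0.24.0, pandas 2.3.3). Desert assignment, overlap and repeat search were tested on simulated data.

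Deserts named were the 12 with the most peaks, the 12 densest of at least 500 kb, those with a shared region and up to 6 per gene list. Peaks named were shared ones and the 3 highest scores per library, and other tandem-repeat peaks were named after their values were seen. A few deserts and regions that these rules name are not reported here. The members and gene lists were chosen with earlier results of these data known. Alternatives covered the distance, the genes, the score, repeats, and what counts as overlap.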

Additional observations from a re-analysis of the deposited data

How the results depend on the processing

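Of 148 values recomputed under an alternative, 127 stayed within the 95% interval of the value given (for peaks per Mb by gene list, within 1.5 times its count), and 21 moved beyond it. The rule for gene lists was the looser one. Without Alu-matching peaks, cadherin deserts had 3.69 per Mb (main interval 4.04 to 5.57) and synaptic and immunoglobulin-type adhesion deserts 3.96 (4.28 to 5.69). All deserts had 4.22 (4.87 to 5.44). These lay below their intervals, and the other lists stayed inside theirs. With 100 kb in place of 250 kb, deserts held 28.4%, 29.7%, 30.5% and 20.7% of the ChAT vehicle, ChAT Aβ, SATB1 vehicle and SATB1 Aβ peaks and 30.3% of bases. With 500 kb these were 7.47%, 9.75%, 7.55% and 5.83% of 10.1%, and with over 50 kb from a gene of any type 8.71%, 10.5%, 9.89% and 7.79% of 10.9%. Without Alu-matching peaks the SATB1 Aβ share was 18.4%, and 7.89% of its remaining desert peaks overlapped a ChAT Aβ peak. With scores at or above the median of each library, 11.8% of SATB1 vehicle desert peaks overlapped a ChAT vehicle peak, the Alu-matching and multi-copy shares of ChAT Aβ were both 3.17%, and the multi-copy share of SATB1 vehicle was 3.53%. Over 500 kb from genes the A+T content of ChAT Aβ peaks was 62.6%. Leaving out tandem-repeat peaks, added after seeing the data, gave ChAT vehicle 63.5% A+T and a multi-copy share of 2.91%, and the A+T intervals of ChAT vehicle and SATB1 vehicle then covered the value of the desert tiles. The SATB1 Aβ share in deserts was below the share of bases under each of the 3 other distances. Without Alu-matching peaks it lay closer to that share, at 29.1% of 30.3% (100 kb), 8.23% of 10.1% (500 kb) and 9.93% of 10.9% (over 50 kb from a gene of any type). With 1 library per group and an unknown depth, no difference between libraries has a replicate error. No paired analysis was possible because no result comes from a test and each group has 1 library.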
